A study of Homo sapiens with 9 samples.

Results

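The keratin genes KRT4, KRT7, KRT8, KRT18, KRT19, KRT80, KRT81 and KRT86 were followed through a block of splicing and the recovery from it in MDA-MB-231 cells. They are 8 of the 60708 genes of the count table, taken by matching its Ensembl gene IDs to symbols, and they make up part of a family of 55 keratin genes found there. MDA-MB-231 is an established human cell line of triple-negative breast cancer, which has no oestrogen or progesterone receptor and no HER2 amplification. The 9 libraries, made from polyadenylated RNA, formed 3 groups of 3: cells given the vehicle DMSO, cells given 10 nM pladienolide B (PdB) for 16 h, and cells collected 24 h into recovery from PdB. PdB is a macrolide that binds the SF3B complex, the part of the spliceosome that recognises the intron branch point. The labels give no collection time for the DMSO cells, and the recovery cells were collected 24 h after the end of PdB. Recovery and time in culture therefore cannot be told apart. All groups were the same line. Nothing in the labels says whether replicates came from separate cultures, so p-values measure the spread between these libraries, which may be technical.

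Keratins are the intermediate filament proteins of epithelial cells. A filament is built from heterodimers of an acidic type I keratin (here KRT18 and KRT19) and a basic type II keratin (here KRT4, KRT7, KRT8, KRT80, KRT81 and KRT86), and a keratin without a partner is degraded. KRT8 and KRT18 are the first pair of simple epithelia, KRT7 and KRT19 mark glandular and ductal epithelia, KRT80 is widely expressed in epithelia, KRT81 and KRT86 are hard keratins of the hair shaft, and KRT4 belongs to the non-keratinised stratified lining of the mouth and oesophagus. Carcinoma lines that express vimentin, the filament protein of mesenchymal cells, often keep simple-epithelial keratins.

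The 8 genes were chosen by their measured counts in these same 9 libraries, and which comparison served for the choice is not recorded. All 3 comparisons between groups are therefore treated as used in the choice: the keratins' values below are a description, without p-values. A gene is "called" where edgeR's quasi-likelihood test gave a Benjamini-Hochberg adjusted p under 0.05 over the 20812 genes tested. All 8 keratins passed the filter on low counts. Levels are CPM, the counts of a gene relative to the library's total and scaled by edgeR's TMM factors. Changes are on the log2 scale, given ± SE.

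KRT81 and KRT86 have to be introduced with their sequences, because their levels below rest on reads that can be told apart only where the genes differ. KRT81 is transcribed from the minus strand within the span of KRT86, which lies on the plus strand. No exon of one overlaps an exon of the other. Their coding sequences, 1518 and 1461 bases in the GENCODE 29 transcripts, were 90.1% identical, with a longest identical run of 605 bases. Of all 50-base windows of the KRT81 coding sequence, 57.0% occurred unchanged in a transcript of another gene, as did 56.7% of those of KRT86. With 100-base windows the shares were 39.1% and 41.4%. The first 60 bases shown are part of the identical run, coding bases 333 to 392 counted from the A of the start codon, which fall within chr12:52290264-52291133 for KRT81 and chr12:52302249-52303122 for KRT86 (GRCh38, an intron lies inside each span).

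KRT81 and KRT86: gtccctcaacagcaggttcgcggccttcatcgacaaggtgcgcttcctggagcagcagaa

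The next 2 lines show the 60 aligned bases without a gap in which the genes differed most, coding bases 1249 to 1308 in both, within chr12:52286465-52286821 on the minus strand and chr12:52308234-52308432 on the plus strand. Capitals mark the 14 positions that differ.

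KRT81: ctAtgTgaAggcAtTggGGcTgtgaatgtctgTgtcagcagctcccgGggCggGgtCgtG

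KRT86: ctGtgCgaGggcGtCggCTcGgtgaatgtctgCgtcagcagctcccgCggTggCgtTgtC

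A read from the first stretch fits both genes, whereas KRT81 and KRT86 can be told apart in the second. Other genes were not searched for these 60-base stretches. How the counting treated reads with several matches is not given in the sources used here, so the separate values of KRT81 and KRT86 are uncertain to that extent.

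Total counts per library ran from 56389689 to 67047079. A floor of 3 counts per library corresponded to 0.0433 to 0.0576 CPM, for counting error only. The TMM factors ran from 1.02 to 1.03 in DMSO, from 0.883 to 0.923 in PdB and from 1.08 to 1.09 at recovery. The scaling moved all PdB levels together: the median log2 change of all genes against DMSO was -0.11 with TMM, -0.31 with library totals and 0.039 with upper-quartile factors. Of the markers of the line, VIM, CD44, AXL and CAV1 were present, ESR1 had 0 counts, and CDH1, low throughout, lay at 0.31 ± 0.34 CPM in DMSO, 0.22 ± 0.18 in PdB and 1.28 ± 0.13 at recovery (log2 2.03 ± 0.71 against DMSO, adjusted p = 0.018). Of the 7 line markers tested, CDH1 was the 1 called higher at recovery than in DMSO and 6 were lower, beside 30.7% and 30.5% of all genes. Among the 6 were EPCAM (log2 -1.13, adjusted p = 1.5e-05) and ERBB2 (-0.52, adjusted p = 1e-07). The leukocyte markers PTPRC, CD14 and ITGAM were under 1 CPM, and CD3E and MS4A1 were at or near 0.

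In PdB, 3 of the 8 keratins were called higher than in DMSO (KRT4, KRT81 and KRT86), 4 were called lower (KRT7, KRT18, KRT19 and KRT80), and KRT8 was not called. Over all genes tested in that comparison 70.1% were called, 32% higher and 38.2% lower, so a call on its own does not set the keratins apart. At recovery against DMSO, 3 keratins were higher (KRT4, KRT8 and KRT80), 2 lower (KRT19 and KRT81) and 3 not called (KRT7, KRT18 and KRT86), beside 61.2% of all genes called, 30.7% higher and 30.5% lower. At recovery against PdB, 6 were higher and 2 (KRT81 and KRT86) lower, beside 66.1% of all genes called, 34.6% higher and 31.5% lower. The median log2 change of the 8 was -0.21, 0.10 and 0.56 in these comparisons, against -0.11, 0.026 and 0.062 for all genes tested. These comparisons share their libraries pairwise, so their values stand side by side and are not independent of each other. The 3 libraries of each group did not overlap for 7 of the 8 keratins in PdB against DMSO, 4 in recovery against DMSO and 8 in recovery against PdB, beside 72.5%, 70.4% and 70.5% of all genes tested. In bulk RNA, fewer cells that express a keratin and less of its RNA per cell cannot be told apart.

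**Figure D1:**
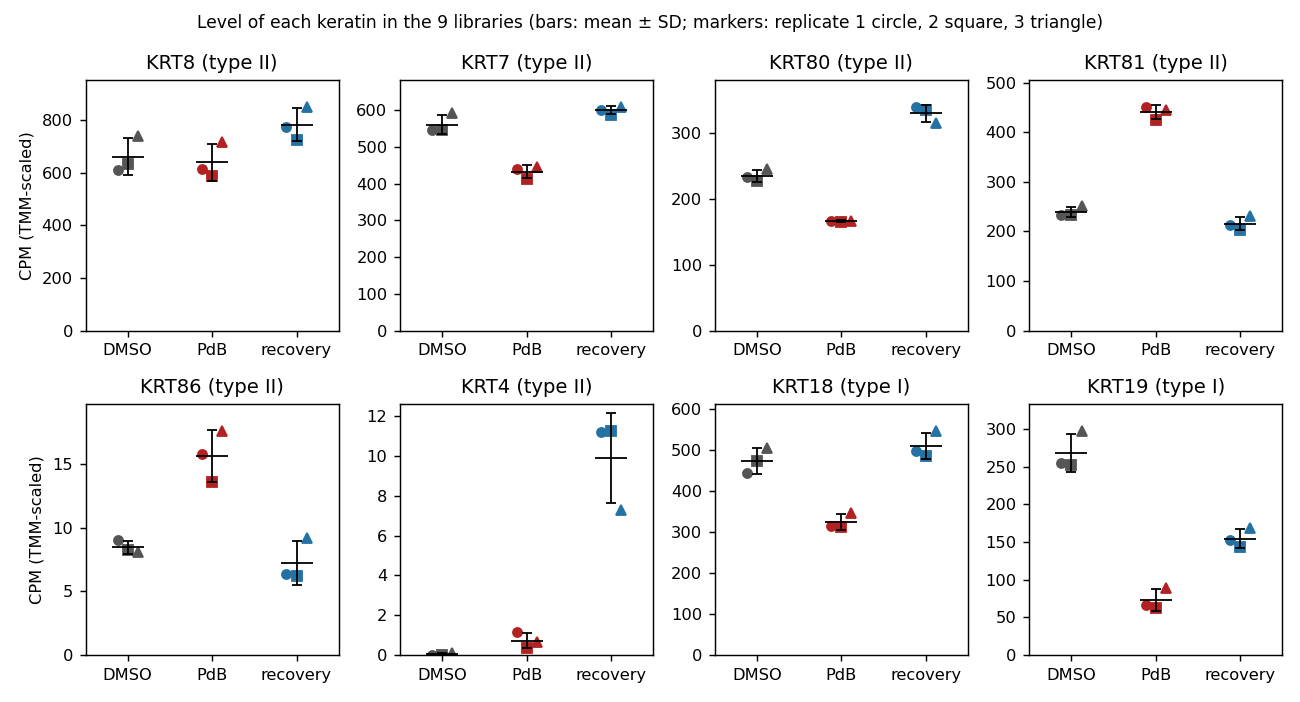
TMM-scaled CPM (linear axes starting at 0) of the 8 keratins in each of the 9 libraries, by group; bars give the mean ± SD of 3 libraries. KRT19 stood lowest in PdB at 72.7 CPM, KRT81 highest in PdB at 440.8 CPM, and KRT4 highest at recovery at 9.92 CPM.

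KRT8, the most abundant type II keratin by CPM, differed little. It lay at 610.2, 630.7 and 739.7 CPM in the 3 DMSO libraries, at 612.5, 585.3 and 717.7 in PdB, and at 771.7, 723.8 and 850.4 at recovery. The DMSO range overlapped that of PdB and that of recovery, while the recovery libraries all lay above those of PdB. The log2 change was -0.05 ± 0.08 in PdB against DMSO (95% interval -0.21 to 0.12), a direction that turned with the scaling (0.048 with RLE and 0.103 with upper-quartile factors). At recovery it was 0.24 ± 0.08 against DMSO and 0.29 ± 0.08 against PdB. The call against DMSO was lost at FDR 0.01 and when DMSO replicate 1 (log2 0.19), DMSO replicate 2 (0.21) or recovery replicate 3 (0.18) was left out.

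KRT18, the type I partner of KRT8, lay at 442.5, 473.1 and 505.3 CPM in DMSO and at 314.5, 312.9 and 346.6 in PdB. It returned to 497.2, 484.5 and 546.0 CPM at recovery, where the libraries overlapped those of DMSO. All PdB libraries lay below all others. The log2 change was -0.55 ± 0.06 in PdB and 0.10 ± 0.06 at recovery, both against DMSO, and the second had a 95% interval from -0.018 to 0.23. It was called with RLE (0.15), upper-quartile (0.181) and library-total scaling (0.176). Recovery stood above PdB by 0.65 ± 0.06.

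The partners stood in another ratio in PdB. Per kilobase of transcript, the ratio of KRT8 to KRT18 was 1.02 ± 0.05 in DMSO, 1.44 ± 0.07 in PdB and 1.13 ± 0.03 at recovery (SD, n = 3), and no library of PdB fell within the range of another group. The genes lie head to head on chromosome 12, KRT8 on the minus strand at 52897187 to 52949954 and KRT18 on the plus strand at 52948871 to 52952901 (GRCh38). They overlap at their starts and share 525 exon bases, 16.3% of those of KRT18 and 7.63% of those of KRT8. Whether strand was used in counting is not given in the sources used here, so reads from the shared bases may be assigned to either.

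KRT7, a type II keratin of glandular epithelium, lay at 546.4, 545.8 and 592.4 CPM in DMSO. In PdB it lay at 439.2, 414.1 and 446.6 CPM, below every other library, and at recovery at 602.1, 588.7 and 610.3 CPM. The DMSO and recovery libraries overlapped. Its log2 change was -0.37 ± 0.05 in PdB and 0.10 ± 0.05 at recovery against DMSO (95% interval -0.001 to 0.19), and 0.47 ± 0.05 from PdB to recovery. The direction of the middle value was the same with every scaling tried, and it was called with RLE, upper-quartile and library-total scaling.

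KRT19, the smallest type I keratin, which lacks most of the tail domain, held the deepest fall of the 8. It lay at 254.5, 251.8 and 297.2 CPM in DMSO and at 66.4, 62.7 and 89.0 in PdB. At recovery it had regained only part of its level, with 151.9, 142.6 and 168.4 CPM, and the 3 groups did not overlap. The log2 change was -1.88 ± 0.10 in PdB and -0.80 ± 0.10 at recovery against DMSO, and 1.09 ± 0.10 from PdB to recovery. Since KRT18 fell less, the ratio of KRT18 to KRT19 per kilobase went from 1.58 ± 0.08 in DMSO to 4.04 ± 0.51 in PdB and stood at 2.94 ± 0.07 at recovery.

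KRT80, a type II keratin found near desmosomes and at cell borders, stood above its DMSO level at recovery. It lay at 232.7, 226.7 and 245.6 CPM in DMSO, fell to 167.0, 164.6 and 166.9 in PdB, and stood at 340.4, 335.2 and 315.7 at recovery. No group overlapped another. The log2 change was -0.50 ± 0.05 in PdB, 0.49 ± 0.05 at recovery against DMSO, and 0.99 ± 0.05 from PdB to recovery. Its spread in PdB was the narrowest of the 24 sets of gene and group, with a coefficient of variation of 0.817%.

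The hair keratins KRT81 and KRT86 were high in PdB and lower in both other groups. KRT81 lay at 234.1, 232.8 and 251.2 CPM in DMSO, at 451.9, 424.5 and 446.0 in PdB, and at 213.0, 203.8 and 230.4 at recovery. Its log2 change was 0.88 ± 0.05 in PdB and -1.03 ± 0.05 from PdB to recovery. The small difference at recovery against DMSO, -0.15 ± 0.05, was not called with RLE (-0.105), upper-quartile (-0.074) or library-total scaling (-0.079), nor without DMSO replicate 3, recovery replicate 1 or recovery replicate 2.

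KRT86 was far less abundant, at 9.05, 8.21 and 8.09 CPM in DMSO, 15.8, 13.5 and 17.6 in PdB, and 6.32, 6.16 and 9.19 at recovery. The recovery range enclosed the DMSO range, and the PdB libraries lay above both. Its log2 change was 0.89 ± 0.15 in PdB, beside 0.88 for KRT81, and -1.11 ± 0.15 from PdB to recovery. At recovery against DMSO it was -0.22 ± 0.15, and -0.44 with a call when recovery replicate 3 was left out. The ratio of KRT81 to KRT86 per kilobase was 32.7 ± 3.0 in DMSO, 32.7 ± 3.5 in PdB and 35.2 ± 5.5 at recovery. The part of shared reads in this ratio was not tested.

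KRT4 was almost absent in the DMSO group, with 1, 0 and 7 counts in its libraries. It had 64, 20 and 35 counts in PdB and 698, 706 and 493 at recovery, so the 3 groups did not overlap. In CPM these were 0.0146, 0 and 0.101 in DMSO, 1.13, 0.355 and 0.673 in PdB, and 11.2, 11.3 and 7.31 at recovery. From summed counts, PdB stood 18.1-fold above DMSO (exact 95% interval 8.89 to 42.9, 119 against 8 counts), and recovery 247-fold above DMSO (125 to 573, 1897 against 8 counts) and 13.6-fold above PdB (11.3 to 16.6). These intervals cover counting error only, since reads are not independent molecules. Of the 8 DMSO counts, 7 came from replicate 3. Over the processing alternatives, the fitted log2 change against DMSO ran from 3.58 to 6.22 in PdB and from 7.36 to 10.0 at recovery. None of the 50-base windows of its coding sequence occurred in another gene's transcript. KRT4 was the only one of the 8 that stood higher in each step from DMSO to PdB to recovery, and even at recovery its level per kilobase, 3.85 ± 0.88, was of the order of that of KRT86, 3.26 ± 0.77.

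**Figure D2:**
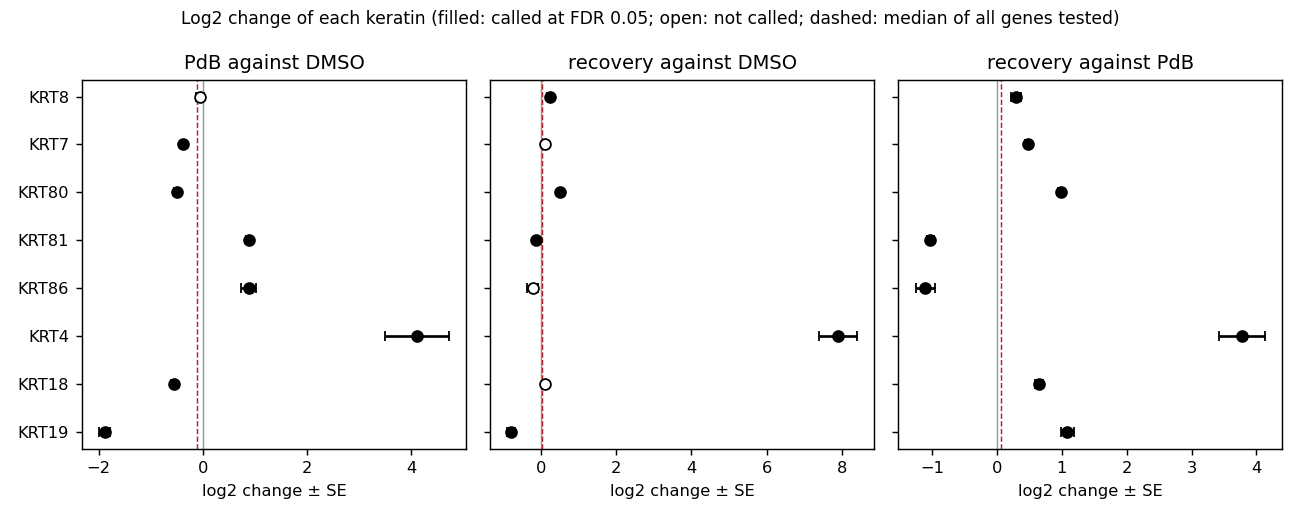
Log2 change ± SE (x axis) of each keratin in the 3 comparisons, with filled points where the change was called, open points where it was not, and a dashed line at the median of all genes tested; the x axes differ between panels. KRT4 lies far right in every panel (4.11, 7.89 and 3.78, fitted values that depend on the near-0 DMSO counts in the first 2), and KRT81 and KRT86 sit on the opposite side from KRT18 and KRT19 in PdB.

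Ordered by CPM per kilobase, KRT7 (320.1), KRT8 (310.5) and KRT18 (303.2) led in DMSO and overlapped each other. KRT19 (192.7), KRT81 (124.1), KRT80 (60.9), KRT86 (3.81) and KRT4 followed, each below all libraries of the one before. In PdB the order was KRT8 (300.3), KRT7 (247.0), KRT81 (228.5) and KRT18 (207.9), the last pair overlapping, followed by KRT19 (52.3) and KRT80 (43.1). At recovery KRT8 (367.8), KRT7 (342.3) and KRT18 (326.0) led again, each overlapping the next. KRT81 (111.9) and KRT19 (111.0) shared a level above KRT80 (85.6), and KRT4 and KRT86 closed the list. From DMSO to PdB, KRT8 passed KRT7 and KRT81 passed KRT19, with no overlap in PdB. KRT81 also passed KRT18 in PdB, where their libraries overlapped, and at recovery KRT81 and KRT19 overlapped.

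Summed over the family, mean keratin RNA was lowest in PdB and highest at recovery. With TMM scaling and as a share of all counts, the PdB libraries lay below all others, while those of DMSO and recovery overlapped. The sum was not computed with RLE or upper-quartile factors. The summed level of the 55 keratin genes was 2484 ± 174 CPM in DMSO, 2151 ± 127 in PdB and 2678 ± 120 at recovery, or 0.256%, 0.193% and 0.289% of all counts. The 8 keratins made up 98.5%, 97.3% and 97.4% of all keratin counts. The share of KRT81 in all keratin counts was 9.65 ± 0.27% in DMSO, 20.5 ± 0.9% in PdB and 8.05 ± 0.14% at recovery. That of KRT19 was 10.8 ± 0.3%, 3.36 ± 0.46% and 5.75 ± 0.23%. The share of KRT8 stayed between 25.8% and 31.4% in the 9 libraries. Per kilobase, the type II members of the 8 outweighed the type I members by 1.65 ± 0.03 in DMSO, 3.18 ± 0.12 in PdB and 2.10 ± 0.06 at recovery.

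**Figure D3:**
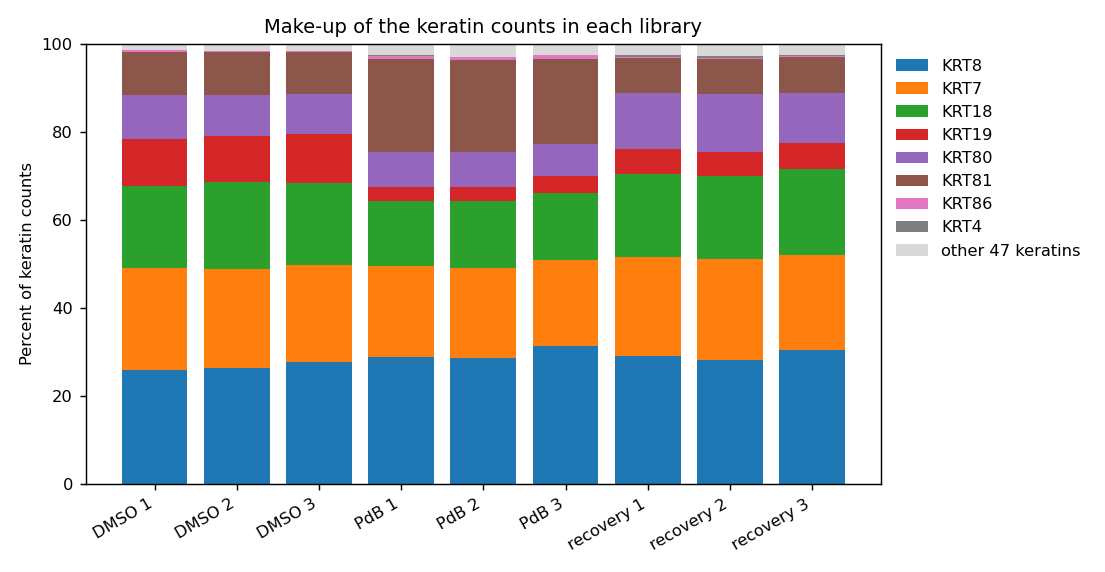
Percent of all keratin counts (y axis, 0 to 100) held by each of the 8 keratins and by the other 47 together, in each of the 9 libraries (x axis). KRT81 widens to 19.5 to 21.3% in the PdB libraries while KRT19 narrows to 3.08 to 3.89%.

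Outside the 8, the other 47 keratin genes were mostly silent: 14 had 0 counts in all libraries, 26 had between 1 and 50 counts summed over the 9, and 6 passed the filter. In PdB against DMSO 2 of these 6 rose and 1 fell, beside 32% of all genes higher and 38.2% lower. At recovery against DMSO 2 rose and none fell, beside 30.7% of all genes higher and 30.5% lower. From PdB to recovery 2 rose and none fell, beside 34.6% of all genes higher and 31.5% lower. With 6 genes, these counts do not set them apart. The 3 that averaged 100 counts or more moved differently from each other, by edgeR's adjusted p. KRT10, the type I keratin of differentiating epidermis, rose from 31.4 ± 4.5 CPM in DMSO to 51.0 ± 2.0 in PdB (log2 0.70 ± 0.09, adjusted p = 8.4e-07) and lay at 53.2 ± 3.6 at recovery (0.76 ± 0.09 against DMSO, adjusted p = 3.9e-07). KRT34, a type I hair keratin, rose from 0.941 ± 0.226 to 4.11 ± 0.72 CPM (2.12 ± 0.21, adjusted p = 3.3e-08) and again to 7.56 ± 0.39 at recovery (0.88 ± 0.18 against PdB, adjusted p = 0.00039).

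KRT15, a type I keratin of basal cells, neighbours KRT19 on chromosome 17 on the same strand, at 41513743 to 41522529 against 41523617 to 41528308 (GRCh38). It fell in PdB from 4.51 ± 0.33 to 1.41 ± 0.42 CPM (log2 -1.68 ± 0.20, adjusted p = 5.3e-07). At recovery it lay at 5.98 ± 0.25 CPM, above PdB by 2.08 ± 0.20 (adjusted p = 3.3e-08) and not called against DMSO (0.41 ± 0.18, adjusted p = 0.065). With RLE (0.45, adjusted p = 0.04), upper-quartile (0.48, adjusted p = 0.032) and library-total scaling (0.48, adjusted p = 0.037) it was called higher there. KRT19, with a near change in PdB (-1.88), stayed below its DMSO level at recovery.

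The genes that anchor keratin filaments were next, since a keratin filament ends on desmosomes, the junctions that join epithelial cells. Of 20 genes of desmosomes and plakins, 14 were tested. In PdB 9 fell and 3 rose, beside 38.2% of all genes lower and 32% higher, with a median log2 change of -1.09 against -0.11 for all genes. At recovery 6 stood lower and 3 higher than in DMSO (median -0.17), beside 30.5% of all genes lower and 30.7% higher. Against PdB 8 stood higher and 2 lower (median 0.79), beside 34.6% of all genes higher and 31.5% lower. The recovery split against DMSO was 3 lower and 3 higher with upper-quartile factors. It was 3 lower and 4 higher with library totals. One of the 3 rises in PdB, that of EVPL at 0.16, turned to -0.04 with library totals, where 10 of the list fell and 1 rose.

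Desmoplakin (DSP), which ties keratins to the desmosomal plaque, lay at 123.3, 105.6 and 150.2 CPM in DMSO, 45.2, 42.6 and 82.8 in PdB, and 164.6, 155.1 and 221.0 at recovery. The PdB libraries lay below all others. It fell by 1.15 ± 0.19 in PdB (log2, adjusted p = 2.8e-05) and was 0.51 ± 0.19 higher at recovery than in DMSO (adjusted p = 0.023). Plectin (PLEC), the linker of intermediate filaments to hemidesmosomes and other cytoskeletal systems, fell from 2380 ± 177 to 1162 ± 69 CPM (-1.03 ± 0.05, adjusted p = 3e-12) and stood at 1819 ± 35 at recovery. Plakoglobin (JUP) fell from 34.3 ± 5.9 to 13.8 ± 2.7 CPM (-1.32 ± 0.14, adjusted p = 1.3e-07) and lay at 26.3 ± 4.2 at recovery.

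The deepest fall of this list in PdB was that of periplakin (PPL), a plakin that binds keratin and vimentin, from 17.3 ± 5.0 to 1.74 ± 0.94 CPM (-3.32 ± 0.26, adjusted p = 1.2e-09). At recovery it lay at 13.3 ± 0.8 CPM, the largest rise of the list from PdB (2.94 ± 0.26, adjusted p = 8.1e-09), with no call against DMSO (adjusted p = 0.14). Its largest rise was that of PERP, a desmosomal membrane protein and p53 target, from 69.2 ± 0.9 to 95.4 ± 2.5 CPM (0.46 ± 0.05, adjusted p = 2.6e-07). At recovery against DMSO the largest rise was that of epiplakin (EPPK1), from 0.469 to 1.82 CPM (1.95 ± 0.41, adjusted p = 0.00041), and the largest fall that of plakophilin 4 (PKP4), from 208.1 to 80.6 CPM (-1.37 ± 0.05, adjusted p = 2.5e-13). PKP4 was also the largest fall from PdB (-1.58 ± 0.05, adjusted p = 1.8e-14).

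**Figure D4:**
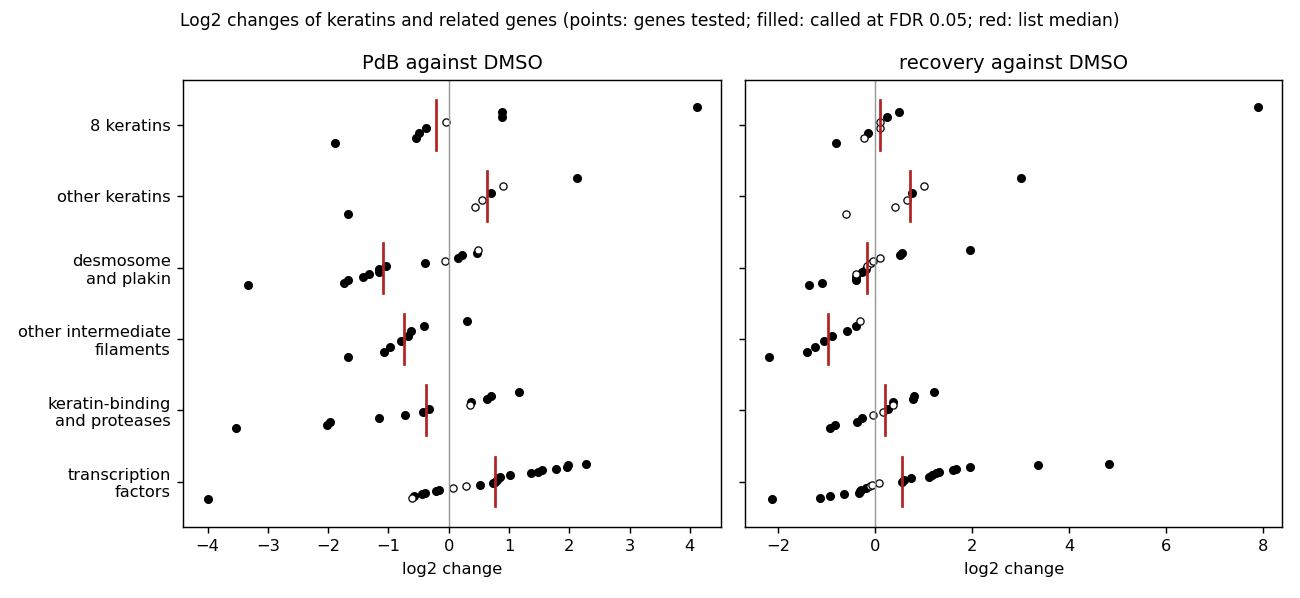
Log2 change (x axis) of each tested gene of the keratins and of 5 related lists (rows) in PdB against DMSO and at recovery against DMSO; filled points were called, open points were not, and red bars mark list medians. In PdB the medians of desmosome and plakin genes (-1.09) and other intermediate filaments (-0.73) lie left of 0 and that of the transcription factors (0.76) lies right.

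Most of the tested intermediate filament genes other than keratins were lower than in DMSO at both stages. Of 15, 8 were tested: 7 fell and 1 rose in PdB (median -0.73), beside 38.2% of all genes lower and 32% higher. At recovery against DMSO 7 were lower and none higher (median -0.97), beside 30.5% of all genes lower and 30.7% higher. These list counts were the same in all scalings tried. Vimentin (VIM) lay at 2871 ± 52 CPM in DMSO, 2162 ± 135 in PdB (log2 -0.41 ± 0.04, adjusted p = 1.2e-07) and 1094 ± 13 at recovery (-1.39 ± 0.04, adjusted p = 3.4e-14). Its fall from PdB to recovery was the largest of the list (-0.98 ± 0.04, adjusted p = 7.5e-13). The VIM to keratin ratio, from CPM, was 1.16 ± 0.06 in DMSO, 1.01 ± 0.12 in PdB and 0.409 ± 0.023 at recovery. Nestin (NES), a filament protein of progenitor cells, had the deepest fall at both stages, from 32.3 ± 4.4 to 10.2 ± 1.3 CPM in PdB (-1.66 ± 0.11, adjusted p = 1.6e-10) and 7.14 ± 0.24 at recovery (-2.18 ± 0.11, adjusted p = 1.2e-11).

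Of the nuclear lamins, lamin B1 went apart from lamin A/C and lamin B2 in PdB. Lamin B2 (LMNB2) fell (log2 -0.79, adjusted p = 6.4e-11). Lamin A/C (LMNA) fell from 1031 ± 28 to 671 ± 16 CPM (log2 -0.62 ± 0.04, adjusted p = 1.3e-10) and lay at 789.5 ± 17.7 at recovery. Lamin B1 (LMNB1) was the single rise of this list, from 205.1 ± 5.8 to 252.6 ± 4.7 CPM (0.30 ± 0.04, adjusted p = 7.2e-06), and fell to 137.3 ± 1.5 at recovery (-0.58 ± 0.04 against DMSO, adjusted p = 1.9e-09). The largest rise from PdB to recovery was that of the lens filament gene BFSP1, from 1.98 to 3.37 CPM (0.77 ± 0.21, adjusted p = 0.0043).

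All 12 genes of keratin-binding proteins and of the proteases that cut keratins were tested. In PdB 7 fell and 4 rose (median -0.38), beside 70.1% of all genes called (median -0.11). At recovery 5 stood higher and 4 lower than in DMSO (median 0.22), beside 61.2% of all genes called (median 0.026). CASP6, a caspase that cleaves type I keratins in apoptosis, lay at 20.1, 20.1 and 19.4 CPM in DMSO and at 1.38, 2.15 and 1.61 in PdB. Its log2 change of -3.53 ± 0.14 (adjusted p = 1.5e-13) was the deepest of the list, and at 10.5 ± 0.9 CPM it was still lower at recovery than in DMSO (-0.92 ± 0.12, adjusted p = 2.8e-06). Its rise from PdB was the largest of the list (2.61 ± 0.14, adjusted p = 1.4e-11). Pinin (PNN), a desmosome-associated and splicing-related protein, had the largest rise in PdB, from 183.3 ± 10.7 to 411.1 ± 23.8 CPM (1.17 ± 0.06, adjusted p = 1.1e-12). DNAJB6, a co-chaperone that binds KRT18, rose from 346.2 ± 10.3 to 536.1 ± 13.9 CPM in PdB (0.63 ± 0.04, adjusted p = 2.2e-10) and lay at 338.2 ± 7.2 at recovery, the largest fall from PdB (-0.67 ± 0.04, adjusted p = 1.3e-10).

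Of 25 transcription factors known for epithelial or mesenchymal genes, 23 were tested. In PdB 14 rose and 6 fell (median log2 change 0.76), beside 32% of all genes higher and 38.2% lower (median -0.11). The falls numbered 3 with RLE or upper-quartile factors and 8 with library totals. At recovery 12 stood higher and 8 lower against DMSO (median 0.56), beside 30.7% of all genes higher and 30.5% lower. Against PdB 8 were higher and 11 lower (median -0.19), beside 34.6% of all genes higher and 31.5% lower. The last median was 0.073 with library totals, where 11 were higher and 9 lower, and the fall of ZEB1 from PdB to recovery (-0.25) turned to 0.02 there. FOSL1, the AP-1 subunit Fra-1, rose from 727.3 ± 34.0 to 2020 ± 106 CPM in PdB (1.47 ± 0.05, adjusted p = 3e-14) and lay at 598.6 ± 39.2 at recovery, below DMSO (-0.28 ± 0.05, adjusted p = 0.00015). JUNB, another AP-1 subunit, rose from 20.1 ± 3.9 to 40.8 ± 1.2 CPM in PdB (1.02 ± 0.10, adjusted p = 4.6e-08). At recovery JUNB lay at 47.9 ± 3.3 CPM, narrowly called higher than in PdB (0.23, edgeR's adjusted p = 0.048). That call was lost with RLE and upper-quartile factors.

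The SNAIL family members, repressors of epithelial genes, both rose in PdB and stood on opposite sides of DMSO at recovery. SNAI1 had the largest rise of the list in PdB, from 0.822 ± 0.162 to 3.997 ± 1.24 CPM (log2 2.28 ± 0.23, adjusted p = 4.9e-08), and rose again to 8.45 ± 0.47 at recovery (1.08 ± 0.20 against PdB, adjusted p = 0.00011). SNAI2 rose from 23.8 ± 1.2 to 93.9 ± 3.6 CPM in PdB (1.98 ± 0.08, adjusted p = 6.4e-14) and fell to 12.4 ± 1.4 at recovery, the largest fall of the list from PdB (-2.92 ± 0.08, adjusted p = 1.6e-15) and below DMSO (-0.94 ± 0.08, adjusted p = 7.3e-09). ZEB1, a repressor of CDH1, was lower in PdB (85.5 ± 6.3 to 64.8 ± 5.2 CPM, -0.40 ± 0.07, adjusted p = 4.8e-05) and at recovery (54.7 ± 2.7 CPM, -0.65 ± 0.07 against DMSO, adjusted p = 1.9e-07). Its relative ZEB2 went the other way against DMSO, higher in PdB (1.56, adjusted p = 3.2e-12) and at recovery (0.56, adjusted p = 6.5e-06).

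TP63, the master regulator of stratified epithelium, had the deepest fall in PdB, from 0.994 ± 0.099 to 0.0602 ± 0.0735 CPM (adjusted p = 0.00024). GRHL3, a regulator of the epidermal barrier, rose at recovery to 0.894 ± 0.163 CPM from 0.0292 ± 0.0293 in DMSO (adjusted p = 0.00012), the largest rise of the list there and from PdB (0.0374 ± 0.0385 CPM, adjusted p = 0.00019). Both are genes of few counts, whose low group lay about the 3-count floor, so no size of change is given for them.

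Genes whose course over the 9 libraries was most like that of each keratin were found by the root mean square difference of log2 CPM centred on each gene's mean, over the 13856 genes that averaged 100 counts or more. All genes were measured in the same libraries, and the likeness is a description. The nearest were ITCH (0.034) and MRPS10 (0.041) to KRT7, GARRE1 (0.065) and DDAH1 (0.083) to KRT8, PLIN3 (0.059) and PEF1 (0.065) to KRT18, and IL17RA (0.043) and NARS1 (0.052) to KRT80. For KRT19 they were WIPF1 (0.093) and CHAF1B (0.105), for KRT81 GABARAP (0.050) and CTSD (0.052), and for KRT86 ZNF780B (0.139) and ANKRD33BP1 (0.140). KRT4 had no near neighbour: PYGM stood at 1.07 and SNORD3B-2, one of several U3 RNA copies that share reads, at 1.11.

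Within the 8, the closest courses were those of KRT7 and KRT18 (0.096), KRT81 and KRT86 (0.153) and KRT7 and KRT8 (0.154). For KRT86, 6 genes were nearer than KRT81. KRT8 and KRT18, partners in the filament, lay farther apart (0.214), with 879 genes nearer to KRT8 than KRT18 was. KRT19 was nearest to KRT18 (0.569).

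KRT8 and KRT18 have many processed pseudogenes, copies of the spliced messenger RNA inserted elsewhere in the genome. Of the 50-base windows of the coding sequence, 48.2% of those of KRT8 and 38.7% of those of KRT18 occurred in transcripts of other genes, mostly such pseudogenes. With 100-base windows the shares were 8.87% and 0%. Reads assigned to pseudogenes and to KRT8 may therefore be mixed, and the counts of both are uncertain.

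The 51 KRT8 pseudogenes in the table summed to 15.3 ± 1.1 CPM in DMSO, 55.4 ± 1.2 in PdB and 25.8 ± 1.3 at recovery, or 2.34%, 8.75% and 3.3% of KRT8. Of the 9 tested, 6 rose and none fell in PdB by edgeR's test, beside 32% of all genes higher and 38.2% lower. At recovery against DMSO 5 were higher and none lower, beside 30.7% and 30.5% of all genes. KRT8 itself was not called in PdB. The pseudogene with most counts, KRT8P12, on chromosome 3 at 160565447 to 160569248 (GRCh38), rose from 4.39 ± 0.57 to 17.9 ± 1.6 CPM (log2 2.03 ± 0.13, adjusted p = 9e-11) and lay at 5.54 ± 0.55 at recovery.

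Of these 9, 5 lie inside a protein-coding gene on the same strand. All 5 were called higher in PdB, KRT8P36 only narrowly (edgeR's adjusted p = 0.047), and so was 1 of the other 4, beside 32% of all genes. With 9 genes, this split is a description only. It leaves out host genes on the opposite strand, and whether strand was used in counting is not given. KRT8P46, named here after its values were seen, lies within MANBA, the gene of a lysosomal mannosidase, and rose from 0.402 ± 0.076 to 20.02 ± 0.4 CPM (log2 5.63 ± 0.18, adjusted p = 4.5e-15). MANBA rose from 8.45 ± 1.28 to 91.3 ± 6.7 CPM (3.43, adjusted p = 3e-15). The other hosts went otherwise in PdB: NUP107, host of KRT8P39, fell by 1.34 (adjusted p = 4.5e-13), DZIP1L, host of KRT8P36, by 0.97 (adjusted p = 0.00037) and CEP120, host of KRT8P33, by 0.76 (adjusted p = 2.5e-07), while TTBK2, host of KRT8P50, was not called (0.15, adjusted p = 0.11). KRT8P50 overlaps an exon of TTBK2. The part of host transcripts in the pseudogenes' counts was not tested.

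**Figure D5:**
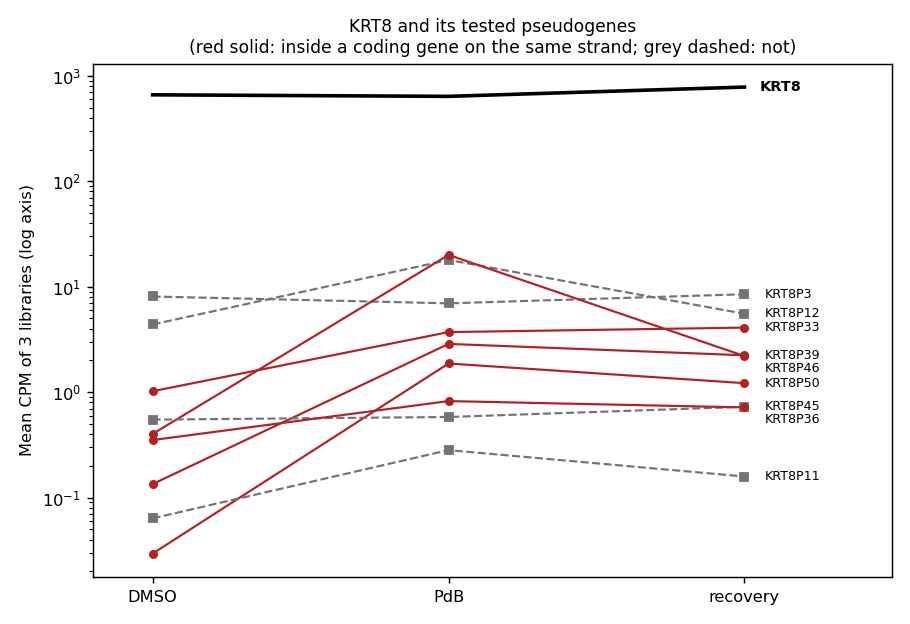
Mean CPM of 3 libraries (log axis) of KRT8 (thick black) and its 9 tested pseudogenes in the 3 groups, with red solid lines for pseudogenes inside a coding gene on the same strand and grey dashed lines for the others. KRT8 has its lowest mean in PdB (638.5 CPM) and its highest at recovery (782.0 CPM), while KRT8P46 and KRT8P12 peak in PdB at 20.02 and 17.9 CPM.

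The KRT18 pseudogenes, 68 in the table, summed to 0.835 ± 0.102 CPM in DMSO, 3.09 ± 0.85 in PdB and 2.27 ± 0.17 at recovery, at most 0.957% of KRT18. Of the 4 tested, 2 rose in PdB, beside 32% of all genes higher. The antisense gene KRT7-AS, on the strand opposite to KRT7 with 282 shared exon bases, fell in PdB from 7.34 ± 0.38 to 4.44 ± 1.17 CPM (log2 -0.73 ± 0.17, adjusted p = 0.001) and lay at 6.98 ± 0.69 at recovery. Without strand in the counting, its reads and those of KRT7 could not be told apart in the shared bases.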

How the data were processed

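RNA-seq of 9 libraries was analysed. The file the authors deposited holds raw, whole-number counts of reads for 60708 genes. Per the submitters' processing notes, the genome was hg38 and the software included featureCounts 2.0.3, STAR 2.7.9a, fastp 0.23.2, DESeq2 1.30.0 and Picard. Settings, annotation release and strand use were not given in the sources used. Symbols matched 60507 IDs, and coordinates and transcripts came from GENCODE 29 (GRCh38).

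The 20812 genes that passed filterByExpr were TMM-scaled and tested two-sided by edgeR's quasi-likelihood test (4.0.16, R 4.3.3) in 1 model of all 9 libraries. The Benjamini-Hochberg threshold was 0.05. edgeR's common coefficient of variation came to 0.111. The script was tested on simulated data. No pair of libraries agreed within sampling noise (chi-square per degree of freedom 4.87 to 24.1 within groups).

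The keratins and the lists were chosen with earlier results of these data known. The related lists were written from general knowledge and not picked for how their genes moved. Adjusted p-values of their genes come from the fit over all genes tested, and no list was tested as a whole. Named genes were the 8 keratins, other keratins averaging at least 100 counts, the largest called rise and fall per list and comparison, and 10 genes fixed by name, with the 2 most alike genes per keratin. ZEB2 and LMNB2 were added beside ZEB1 and the other lamins after their values were seen. A few genes of these lists are not reported here. The alternatives changed 1 choice at a time: scaling (RLE, upper-quartile, library totals), filter (none, or an average of 50 counts), FDR 0.01, DESeq2 1.42.0 as the test, a fit of only the 6 libraries, a replicate block, and leaving out each library. Figures were drawn with matplotlib 3.10.9.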

Additional observations from a re-analysis of the deposited data

How the results depend on the processing

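In recovery against PdB, all 144 keratin log2 changes under 18 alternatives kept their direction and their call, and in PdB against DMSO 136 of 144 did. The exceptions there were KRT8, whose uncalled change of -0.05 turned to 0.048 with RLE factors, 0.103 with upper-quartile factors, 0.074 with a mean of at least 50 counts, 0.048 with DESeq2, 0.03 with only the 6 libraries compared, and 0.005 and 0.03 without PdB replicate 2 and DMSO replicate 3 (-0.142 to 0.03 over all libraries left out), and was called at -0.243 with library totals. In recovery against DMSO, 13 of 144 changes lost a call and 17 gained one, with no change of direction. There the keratins called higher numbered 5, not 3, with RLE, upper-quartile and library-total scaling, a mean of at least 50 counts, DESeq2 and the replicate block, and 2 to 5 with each library left out, 5 without DMSO replicate 3 and 2 without DMSO replicate 1, DMSO replicate 2 or recovery replicate 3. They numbered 2 at FDR 0.01, where the call of KRT8 was lost. The keratins called lower there numbered 1, not 2, with RLE, upper-quartile and library-total scaling, a mean of at least 50 counts, FDR 0.01 and DESeq2, and 1 to 3 with each library left out, 1 without DMSO replicate 3, recovery replicate 1 or recovery replicate 2 and 3 without recovery replicate 3. Of the other keratins, 4 rather than 2 were called with DESeq2 in recovery against DMSO, and 2 to 4 in recovery against PdB with each library left out, 4 without DMSO replicate 1 or DMSO replicate 2. The cause was not tested. In PdB against DMSO, 6655 genes were called higher and 7944 lower with TMM, 7510 and 7060 with upper-quartile factors, and 5579 and 9098 with library totals. Groups shared replicate numbers, and deviations of same-numbered libraries from their group means correlated at -0.003 to 0.048, so the numbers were not taken to pair samples; the same number correlated best in 13 of 18 cases, a hint from the data only, and 4 of the 8 keratins were highest in replicate 3 in all 3 groups. KRT4 in DMSO, with 8 counts in all, is limited by depth.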
